A study of Mus musculus with 34 samples.

Results

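Messenger RNA levels of 10 genes of the CC chemokine system were followed in mouse spinal cord after injury. They are 8 ligands, Ccl2, Ccl3, Ccl4, Ccl5, Ccl6, Ccl7, Ccl9 and Ccl12, and 2 receptors, Ccr1 and Ccr2, out of 18193 genes named on the array. A probe set was taken as a member's when its only gene symbol was that of the member, and each gene was read by the one of its probe sets with the highest mean over 34 arrays. Cord tissue came from mice without trkB.T1 (KO) and from wild-type mice (WT). Ntrk2 encodes trkB, the receptor for brain-derived neurotrophic factor, and trkB.T1 is a short receptor isoform of that gene without a kinase domain. The KO arrays were 4 sham arrays and, after spinal cord injury, 4 from day 1, 5 from day 3 and 4 from day 7. The WT arrays were 4 sham arrays and 5, 4 and 4 from the same days. Sham mice of each genotype had surgery with the cord left intact. Their arrays are labelled day 0, and the same sham arrays of each genotype were the reference for every day after injury. The labels state neither age, sex, strain nor cord level. Nor do they tie each array to its own mouse, and the p-values therefore reflect variation from sample to sample, which may be technical.

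CC chemokines are small secreted proteins with neighbouring cysteines near the amino end, and they draw leukocytes towards their source through receptors coupled to inhibitory G proteins. Ccl2, Ccl7 and, in mice, Ccl12 act on Ccr2, the receptor that brings monocytes out of the bone marrow and into damaged tissue. Ccl3, Ccl5 and the mouse chemokines Ccl6 and Ccl9 act on Ccr1, whereas Ccl4 draws in macrophages and lymphocytes. In the injured cord, microglia, astrocytes and blood-derived macrophages are known sources of these ligands.

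All values are log2 array signals, so 1 unit is a doubling. A signal under log2 4 is called not well above background, and a gene whose lower group has such an array gets a fold written as "at least". A value after ± is the SD of a group's level or the standard error (SE) of a log2 difference. Differences were tested with limma over 11993 genes with signal above background, and a gene was called at an adjusted p under 0.05. All 10 members were among them.

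The Ntrk2 gene itself was read on each array as a check of the labels. Its probe set 1420838_at read 3.12 to 4.94 on 16 KO arrays, against 10.01 to 10.86 on the 17 WT arrays. The array labelled KO sham replicate 2 read 9.46 there, and 8.59 on a further Ntrk2 probe set, 1435196_at, where the other KO arrays all read 2.83 and the WT arrays 8.65 to 9.92. On these probe sets it goes against its label. On 3 others it lay with the KO sham arrays: 1458622_at read 11.37 there, against 11.22 to 11.36 on the other KO sham arrays and 11.09 to 11.14 on WT sham arrays, 1435305_at read 10.64 (10.50 to 10.62 and 10.26 to 10.41), and 1437560_at read 7.92 (7.81 to 7.96 and 7.44 to 7.83). The same array also had the lowest KO sham values of fibroblast genes (6.80, against 8.93 to 9.51, though a WT sham array read 6.72) and of monocyte and macrophage genes (4.66, against 5.16 to 5.54), each as a mean of the listed genes. WT day 3 replicate 2 stood apart in the members, as described below. The main results that rest on either array are given with and without it. Neuron, astrocyte and oligodendrocyte marker genes averaged 12.42, 12.17 and 13.79 in KO sham cords and 12.46, 12.23 and 13.86 in WT sham cords, as the labelled tissue requires, whereas none of the T, NK and B cell markers on the array was above the limit for testing. Skeletal muscle genes varied widely between arrays, with list means from 4.61 to 14.01 in KO day 3 cords. They also differed between groups. KO sham arrays read 8.12 to 11.01, against 3.50 to 6.94 at KO day 1 and 3.76 to 5.27 at KO day 7. All 6 listed muscle genes were called lower than KO sham on those 2 days (27.3% and 31% of all genes). In WT none was called against sham, where sham arrays read 3.27 to 9.41. Precision is limited by how many arrays each group has.

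The members lie in compact groups of neighbouring genes. On chromosome 11, Ccl2 lies beside Ccl7, which is followed by Ccl11, and Ccl12 lies between Ccl11 and Ccl8. A further run on the same chromosome holds Ccl5, Ccl9, Ccl6, Ccl3 and Ccl4 in that order. Ccr1 and Ccr2 are on chromosome 9, Ccr1 between Xcr1 and Ccr1l1. Promoter sequences of 6 of the 10 members were in the table used here, from RefSeq on build GRCm38.p6, each from 250 bases before to 50 bases after the gene's start. Letter patterns (motifs) of factors with a textbook part in inflammatory and myeloid genes were searched on both strands, kB (GGG and CC with any 5 bases between them), AP-1 (TGANTCA) and PU.1 (GAGGAA). The sequences that follow, 5′ to 3′, are those of Ccl12, Ccl3 and Ccr1, which hold a match. They are shown because all 3 genes were at or near background in sham cords and called higher on every day after injury. Capitals mark the matches.
Ccl12 (chr11:82101595-82101894, + strand): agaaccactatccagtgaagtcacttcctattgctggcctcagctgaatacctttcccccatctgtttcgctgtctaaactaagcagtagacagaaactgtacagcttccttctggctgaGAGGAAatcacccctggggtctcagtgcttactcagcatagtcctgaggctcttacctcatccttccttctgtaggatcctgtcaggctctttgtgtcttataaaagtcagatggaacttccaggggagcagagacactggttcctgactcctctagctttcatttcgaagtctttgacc
Ccl3 (chr11:83649329-83649628, - strand): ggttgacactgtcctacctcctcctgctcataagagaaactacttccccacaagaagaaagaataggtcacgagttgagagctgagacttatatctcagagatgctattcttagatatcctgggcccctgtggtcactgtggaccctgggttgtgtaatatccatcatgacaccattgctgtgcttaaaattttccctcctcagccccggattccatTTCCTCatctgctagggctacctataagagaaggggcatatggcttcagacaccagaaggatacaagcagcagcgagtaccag
Ccr1 (chr9:123968643-123968942, - strand): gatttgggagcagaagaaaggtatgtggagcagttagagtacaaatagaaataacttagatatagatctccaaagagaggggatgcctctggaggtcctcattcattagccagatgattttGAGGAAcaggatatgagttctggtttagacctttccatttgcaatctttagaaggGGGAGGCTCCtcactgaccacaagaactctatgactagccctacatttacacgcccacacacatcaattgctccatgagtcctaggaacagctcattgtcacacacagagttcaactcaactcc
Ccl12 holds a PU.1 match from -130 to -125, counted from the gene's start. Ccl3 holds a PU.1 match on the opposite strand from -33 to -28. Ccr1 holds a kB match from -74 to -65 and a PU.1 match from -129 to -124, and none of these matches overlaps another. Of all 32851 promoters of this length, 50.8% hold the kB motif, 7.8% the AP-1 motif and 28.3% the PU.1 motif, so kB and PU.1 matches are common. The window of Ccr2 holds none of the 3 motifs.

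Ccl6 and Ccl9, neighbours whose signals ran nearly in parallel, are shown together. Capitals mark every run of at least 10 bases that both hold on their own coding strand. The first capital stretch of Ccl9 joins overlapping runs that lie apart in Ccl6, and is therefore longer than any shared run.
Ccl6 (chr11:83593038-83593337, - strand): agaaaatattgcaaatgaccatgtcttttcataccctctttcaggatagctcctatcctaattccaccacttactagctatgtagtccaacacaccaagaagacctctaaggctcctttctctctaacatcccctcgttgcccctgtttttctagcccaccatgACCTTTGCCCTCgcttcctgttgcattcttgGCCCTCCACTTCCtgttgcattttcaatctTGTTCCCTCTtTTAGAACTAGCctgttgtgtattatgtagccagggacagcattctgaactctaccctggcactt
Ccl9 (chr11:83578587-83578886, - strand): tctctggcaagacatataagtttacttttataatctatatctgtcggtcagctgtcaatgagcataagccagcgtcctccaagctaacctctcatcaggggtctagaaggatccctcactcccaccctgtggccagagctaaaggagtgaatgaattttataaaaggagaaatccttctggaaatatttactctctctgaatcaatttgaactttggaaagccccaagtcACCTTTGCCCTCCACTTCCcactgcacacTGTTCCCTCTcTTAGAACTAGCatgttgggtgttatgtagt
Such runs cover 46 bases of the Ccl6 window and 40 of the Ccl9 window, and the longest is 13 bases. The other 14 pairs among the 6 promoters shared no run that long, and their longest shared runs were 7 to 9 bases. By motif, Ccl9 holds an AP-1 match from -53 to -47 and a kB match on the opposite strand from -35 to -26, and Ccl6 holds none.

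After injury the members as a whole stood far above their sham levels. One day after injury all 10 members were called higher in KO cords and all 10 in WT cords, where 23.7% of tested genes were called higher in KO and 27.1% in WT. On day 3 the number was 9 in KO and 8 in WT, beside 30.9% and 29.5% of tested genes. On day 7 it was 8 in KO and 9 in WT, beside 23.5% and 25.8%. No member was called lower than sham on any day, where the share of tested genes called lower on days 1, 3 and 7 was 27.3%, 38.8% and 31% in KO and 32.5%, 37.4% and 33.3% in WT. Members whose sham arrays lay mostly under log2 4 could hardly be called lower. They were tested only because of their injured arrays, so the absence of lower calls says little about them. The members' median log2 difference from sham was 5.13, 4.90 and 2.58 at days 1, 3 and 7 in KO, and 4.57, 3.97 and 2.30 in WT, while the median over all tested genes lay between -0.05 and -0.06. Without the array labelled KO sham replicate 2 the KO medians were 4.92, 4.86 and 2.55, and 9 members were called at day 1 because Ccl5 no longer passed (adjusted p = 0.0645). The members were chosen with earlier results of these data known, so their counts beside those of all genes are not a test. In whole cord, more cells of a type and more RNA per cell cannot be told apart.

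**Figure D1:**
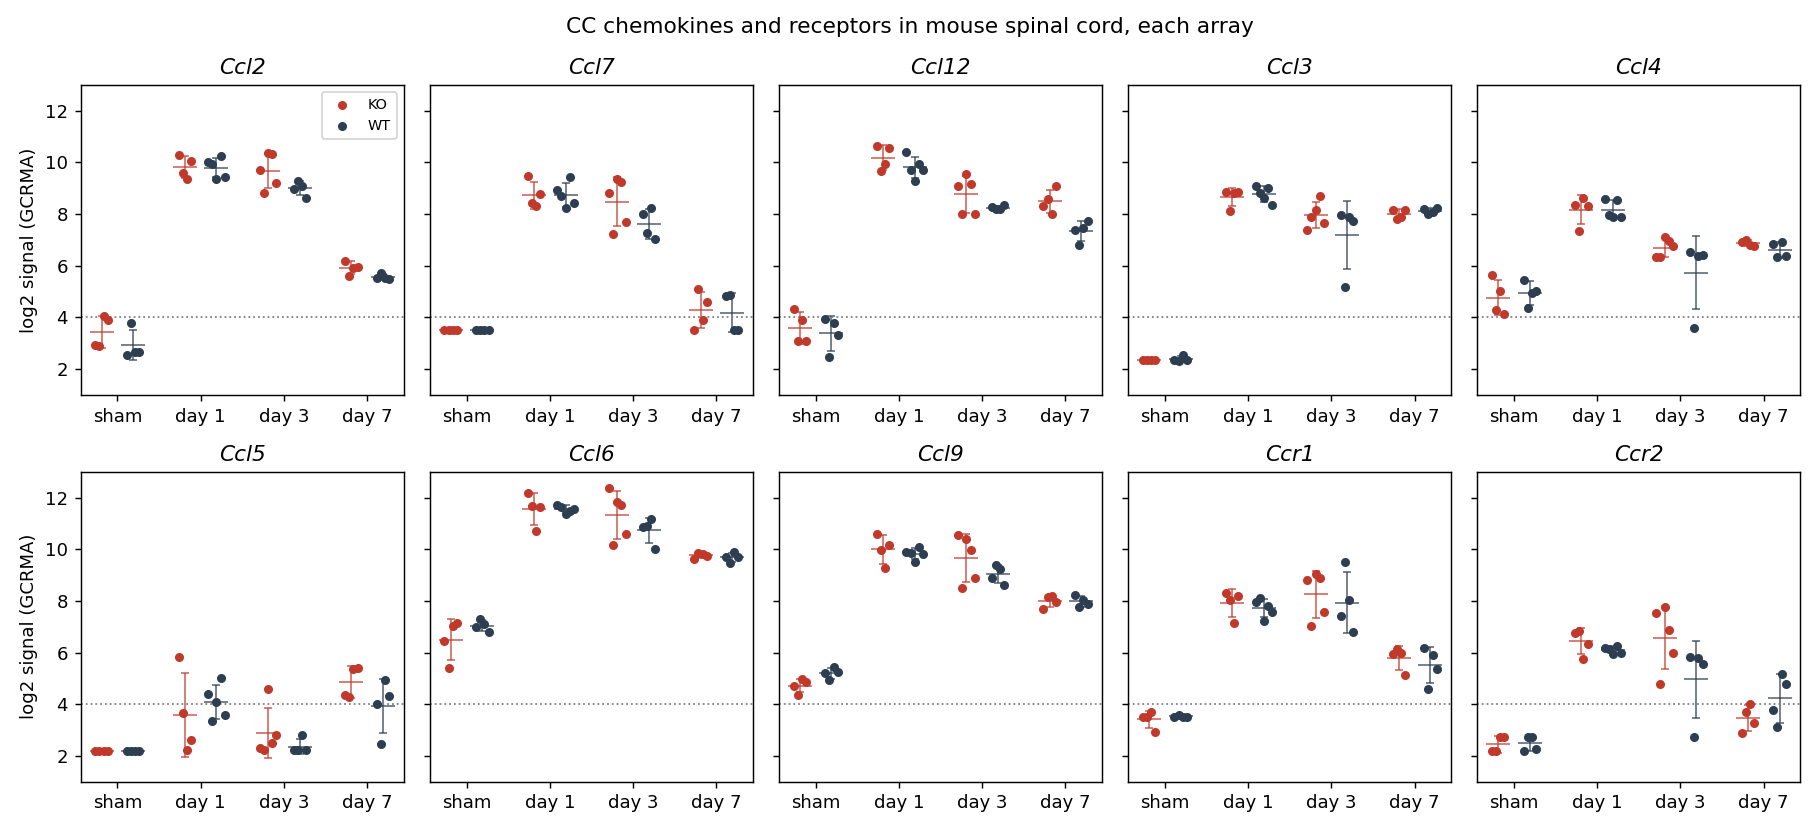
Log2 signal (vertical axis) of the 10 members on each of the 34 arrays by time (horizontal axis), KO in red left of WT in dark blue, with bars for mean ± SD and a dotted line at log2 4. Ccl2 and Ccl7 lie high at days 1 and 3 and low at day 7, Ccl3 and Ccl12 remain high at day 7, and Ccl5 is above the dotted line on 11 of the arrays.

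The ligands of Ccr2 were all raised many fold by day 1 and then parted. Ccl2 (probe set 1420380_at), the main attractant of monocytes, read 2.93, 2.90, 4.05 and 3.91 in KO sham cords, 10.28, 9.59, 9.36 and 10.05 at day 1, 9.71, 8.81, 10.37, 10.31 and 9.20 at day 3, with 6.20, 5.61, 5.93 and 5.97 at day 7. WT cords read 2.56, 3.80, 2.67 and 2.67 after sham surgery, 10.02, 9.93, 9.35, 10.25 and 9.44 at day 1, 8.99, 9.30, 9.07 and 8.62 at day 3, with 5.52, 5.72, 5.52 and 5.47 at day 7. No injured array overlapped the sham arrays of its genotype on any day, and day 7 arrays lay between the sham arrays and those of days 1 and 3. The difference from sham at day 1 was 6.37 ± 0.32 in KO (SE; at least 56.1-fold; adjusted p = 1.34e-15) and 6.87 ± 0.30 in WT (at least 55.6-fold; adjusted p = 7.17e-17). By day 7 it was 2.48 ± 0.32 in KO and 2.63 ± 0.32 in WT, with adjusted p of 2.11e-07 and 6.23e-08.

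Ccl7 (1421228_at), a further monocyte attractant and the neighbour of Ccl2, showed the briefest rise of these 3 ligands. It read 3.53 on every sham array of both genotypes, which is not well above background. At day 1 it read 9.47, 8.41, 8.30 and 8.77 in KO and 8.95, 8.71, 8.23, 9.42 and 8.42 in WT, at least 26.6-fold and 26.9-fold above sham. At day 3 it read 8.80, 7.23, 9.35, 9.26 and 7.71 in KO and 8.02, 7.25, 8.22 and 7.04 in WT. Those arrays were still far above sham, by 4.94 ± 0.39 in KO and 4.10 ± 0.41 in WT. At day 7 it read 3.53, 5.10, 3.90 and 4.60 in KO and 4.81, 4.85, 3.53 and 3.53 in WT. Arrays of both genotypes reached down to the sham level, and the differences, 0.75 ± 0.41 in KO (adjusted p = 0.123) and 0.65 ± 0.41 in WT (adjusted p = 0.177), did not pass.

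Ccl12 (1419282_at), the mouse ligand of Ccr2 whose gene lies beside Ccl8, was also near background in sham cords but stayed high for the whole week. KO cords read 4.31, 3.08, 3.90 and 3.08 after sham surgery, 10.64, 9.65, 9.92 and 10.56 at day 1, 9.09, 8.01, 9.56, 9.17 and 7.99 at day 3, with 8.30, 8.59, 8.02 and 9.08 at day 7. In WT the values were 3.95, 2.47, 3.80 and 3.31 in sham cords, 10.40, 9.72, 9.30, 9.95 and 9.70 at day 1, 8.26, 8.20, 8.21 and 8.35 at day 3, with 7.40, 6.82, 7.47 and 7.74 at day 7. Every injured array lay above every sham array. At day 1 the rise was 6.60 ± 0.35 in KO (at least 69.4-fold; adjusted p = 7.21e-15) and 6.43 ± 0.33 in WT (at least 56.2-fold; adjusted p = 2.61e-15). At day 7 it was 4.91 ± 0.35 in KO and 3.98 ± 0.35 in WT, at least 21.4-fold and 10.3-fold.

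Ccl3 (1419561_at), a ligand of Ccr1 made by activated myeloid cells, was at background in sham cords and high on all 3 days after injury. It read 2.34 to 2.37 in KO sham cords and 2.33 to 2.56 in WT sham cords. KO cords read 8.85, 8.13, 8.83 and 8.85 at day 1, 7.38, 7.90, 8.17, 8.71 and 7.65 at day 3, with 8.14, 7.81, 7.90 and 8.17 at day 7. WT cords read 9.08, 8.82, 8.62, 9.02 and 8.37 at day 1, 7.95, 5.19, 7.88 and 7.72 at day 3, with 8.19, 7.99, 8.08 and 8.24 at day 7. The value 5.19 belongs to replicate 2, and the other 12 injured WT arrays read 7.72 or more. At day 7 the difference from sham was 5.65 ± 0.36 in KO (at least 16.1-fold; adjusted p = 1.39e-13) and 5.73 ± 0.36 in WT (at least 17.4-fold; adjusted p = 9.55e-14).

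Ccl4 (1421578_at), a ligand that draws in macrophages and lymphocytes and the neighbour of Ccl3, was measurable in sham cords and peaked at day 1. KO cords read 5.63, 4.30, 5.03 and 4.13 after sham surgery, 8.34, 7.35, 8.62 and 8.33 at day 1, 6.32, 6.34, 7.11, 6.95 and 6.76 at day 3, with 6.93, 6.98, 6.82 and 6.78 at day 7. WT cords read 5.46, 4.35, 4.94 and 5.02 after sham surgery, 8.60, 7.95, 7.87, 8.55 and 7.87 at day 1, 6.52, 3.60, 6.39 and 6.41 at day 3, with 6.85, 6.33, 6.91 and 6.37 at day 7. Day 1 arrays were above all others of their genotype. The rise at day 1 was 10.5-fold in KO (3.39 ± 0.43 on the log2 scale; adjusted p = 2.46e-07) and 9.35-fold in WT (3.22 ± 0.41; adjusted p = 1.73e-07). At day 3 it was 1.92 ± 0.41 in KO (adjusted p = 0.000138), whereas the WT difference of 0.79 ± 0.43 did not pass (adjusted p = 0.106). Replicate 2 of the WT day 3 group read 3.60, below every WT sham array. Without it the WT difference was 1.50 and passed (adjusted p = 0.000141), and the count of members called in WT at day 3 was 9.

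Ccl5 (1418126_at), a ligand of Ccr1 made by T cells and by activated glia and macrophages, was close to background throughout. It read 2.17 on all 8 sham arrays. KO cords read 5.84, 3.67, 2.21 and 2.63 at day 1, 2.29, 2.21, 4.58, 2.49 and 2.81 at day 3, with 4.34, 4.28, 5.38 and 5.41 at day 7. WT cords read 4.38, 3.35, 4.07, 5.02 and 3.58 at day 1, 2.21, 2.21, 2.79 and 2.21 at day 3, with 4.0, 2.46, 4.94 and 4.30 at day 7. Only the KO day 7 group had all its arrays above log2 4, with a difference of 2.69 ± 0.57 (at least 1.81-fold; adjusted p = 0.000271). The WT differences of 1.91 ± 0.54 at day 1 and 1.75 ± 0.57 at day 7 passed as deposited (adjusted p = 0.00351 and 0.00958), but with values under log2 4 set to 4 they were 0.29 and 0.31 and did not pass (adjusted p = 0.405 and 0.41). In KO at day 1 the difference of 1.42 ± 0.57 (adjusted p = 0.0383) was 0.67 without KO day 1 replicate 1 (adjusted p = 0.285), and it did not pass without KO day 1 replicate 2 or any 1 KO sham array either (adjusted p = 0.0627 to 0.0681). At day 3 Ccl5 was the one member that passed in neither genotype.

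**Figure D2:**
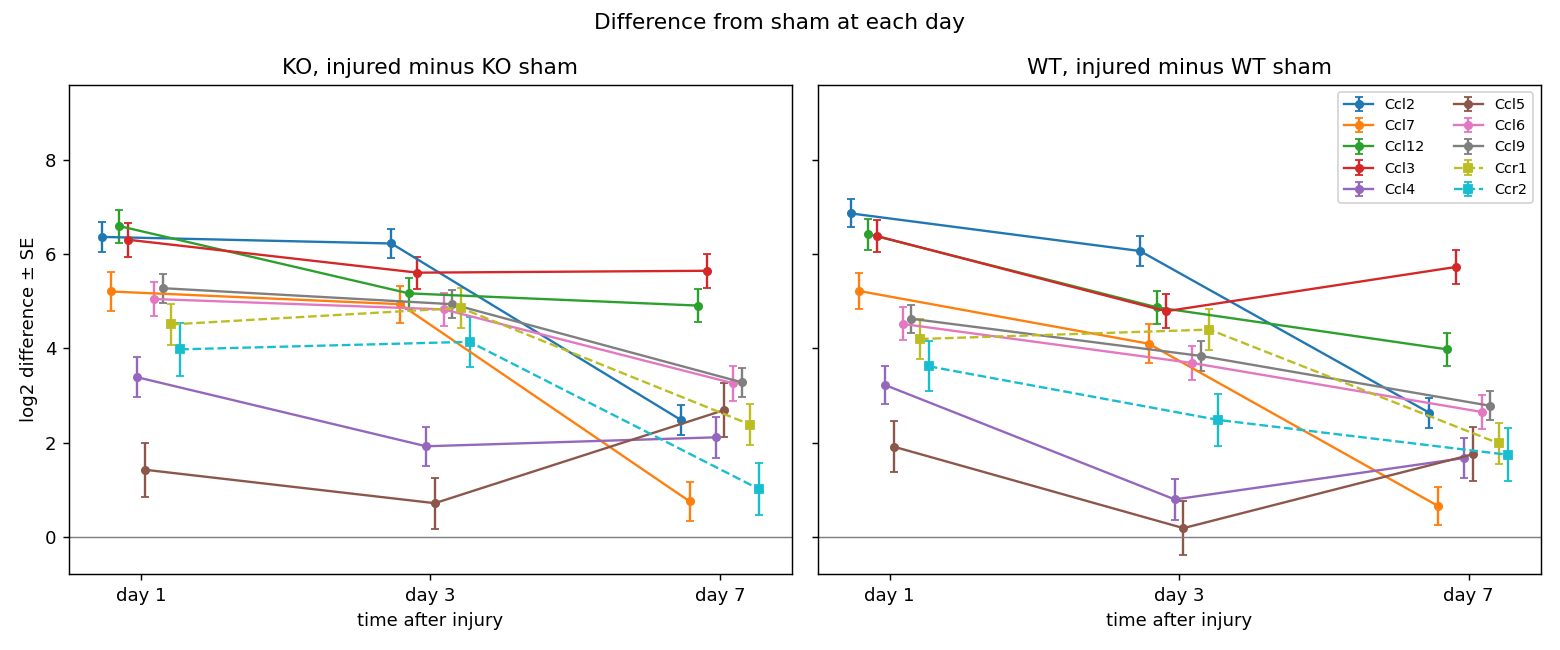
Log2 difference from sham ± SE (vertical axis) at days 1, 3 and 7 (horizontal axis) for the 10 members, KO in the left panel and WT in the right, with ligands as solid lines and receptors as dashed lines. Ccl3 and Ccl12 have the highest values at day 7 in both genotypes, and Ccl7 falls to 0.75 in KO and 0.65 in WT.

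Ccl6 and Ccl9, mouse ligands of Ccr1 that myeloid cells make, were above log2 4 on every sham array and rose in parallel. Ccl6 (1417266_at) read 6.44, 5.39, 7.02 and 7.15 in KO sham cords, 12.19, 11.68, 10.70 and 11.62 at day 1, 12.35, 10.15, 11.82, 11.72 and 10.59 at day 3, with 9.63, 9.85, 9.81 and 9.75 at day 7. WT cords read 7.00, 7.29, 7.09 and 6.78 after sham surgery, 11.72, 11.65, 11.38, 11.49 and 11.54 at day 1, 10.85, 10.90, 11.16 and 10.02 at day 3, with 9.71, 9.47, 9.88 and 9.68 at day 7. Injured and sham arrays did not overlap, and the KO day 3 arrays spread more widely than those of any other group. The rise at day 1 was 33.1-fold in KO (5.05 ± 0.37; adjusted p = 4.8e-12) and 22.9-fold in WT (4.52 ± 0.35; adjusted p = 1.16e-11). The KO sham value of 5.39 is that of the array labelled KO sham replicate 2, without which the KO difference at day 1 was 4.68.

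Ccl9 (1417936_at) averaged 4.72 ± 0.26, 9.99 ± 0.56, 9.66 ± 0.92 and 8.0 ± 0.22 in KO cords after sham surgery and at days 1, 3 and 7 (SD, n = 4, 4, 5 and 4). In WT it averaged 5.20 ± 0.21, 9.83 ± 0.21, 9.04 ± 0.35 and 7.98 ± 0.20 (SD, n = 4, 5, 4 and 4). At day 1 it was 38.8-fold above sham in KO (5.28 ± 0.31; adjusted p = 6.77e-14) and 24.8-fold in WT (4.63 ± 0.30; adjusted p = 2.24e-13). After each gene was centred on its own mean over the 8 groups, the profiles of Ccl6 and Ccl9 differed by a root mean square of 0.08, the smallest among the 45 pairs of members. The next smallest, Ccl6 and Ccr1, was 0.45, while Ccl2 and Ccl5 differed most, by 2.61.

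Ccr1 (1419609_at), the receptor of Ccl3, Ccl5, Ccl6 and Ccl9, was at background in sham cords and had a broad peak over days 1 and 3. KO cords read 3.52, 3.52, 3.68 and 2.92 after sham surgery, 8.29, 8.04, 7.14 and 8.18 at day 1, 8.80, 7.02, 9.02, 8.90 and 7.58 at day 3, with 5.93, 6.12, 5.99 and 5.12 at day 7. WT cords read 3.52, 3.58, 3.52 and 3.52 after sham surgery, 7.96, 8.11, 7.21, 7.80 and 7.57 at day 1, 7.40, 9.51, 8.04 and 6.78 at day 3, with 6.19, 4.59, 5.91 and 5.36 at day 7. The highest WT value, 9.51, came from day 3 replicate 2, which was the lowest WT day 3 array for Ccl3, Ccl4 and Ccr2. At day 3 the rise was 4.86 ± 0.42 in KO (at least 19.2-fold; adjusted p = 6.61e-11) and 4.40 ± 0.44 in WT (at least 15.3-fold; adjusted p = 2.03e-09), or 3.88 in WT without replicate 2. At day 7 it was 2.38 ± 0.44 in KO and 1.98 ± 0.44 in WT, and both passed.

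Ccr2 (1421186_at), the receptor that marks inflammatory monocytes, read 2.17, 2.17, 2.72 and 2.72 in KO sham cords, 6.77, 6.84, 5.76 and 6.34 at day 1, 7.51, 4.79, 7.78, 6.88 and 5.97 at day 3, with 2.87, 3.70, 3.99 and 3.28 at day 7. WT cords read 2.17, 2.73, 2.72 and 2.28 after sham surgery, 6.19, 6.12, 5.95, 6.27 and 5.98 at day 1, 5.81, 2.72, 5.77 and 5.54 at day 3, with 3.78, 3.12, 5.18 and 4.79 at day 7. All KO day 7 arrays were under log2 4, and the KO difference from sham at that day, 1.01 ± 0.56, did not pass (adjusted p = 0.124), though it did in a fit of the compared groups alone (adjusted p = 0.00756) and with array weights (adjusted p = 0.00648). In WT it was 1.74 ± 0.56 and passed (adjusted p = 0.00861), but with values under log2 4 set to 4 it was 0.49 and did not pass (adjusted p = 0.331). At day 1 the rise was 3.98 ± 0.56 in KO (at least 5.38-fold; adjusted p = 1.18e-06) and 3.62 ± 0.53 in WT (at least 4.29-fold; adjusted p = 1.68e-06). At day 3 it was 4.14 ± 0.53 in KO and 2.48 ± 0.56 in WT, and the WT value was 3.23 without replicate 2.

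Ordered by group mean, the members fell into few patterns. KO and WT day 1 groups, in either order, held the top 2 places for Ccl2, Ccl7, Ccl12, Ccl3, Ccl4, Ccl6 and Ccl9. The 2 groups overlapped in each of these genes. For Ccr1 the day 3 groups came first, KO at 8.26 ± 0.91 and WT at 7.93 ± 1.17 (SD, n = 5 and 4), and they overlapped the day 1 groups. For Ccr2 the order began with KO day 3 at 6.58 ± 1.22, KO day 1 at 6.43 ± 0.50 and WT day 1 at 6.10 ± 0.14 (SD, n = 5, 4 and 5), which overlapped, and WT day 3 at 4.96 ± 1.50 (SD, n = 4) lay below the arrays of WT day 1. For Ccl5 the KO day 7 group came first at 4.85 ± 0.63 and WT day 1 came next at 4.08 ± 0.66 (SD, n = 4 and 5), with overlapping arrays. The 2 sham groups held the last 2 places for all 10 members, and their arrays overlapped in each.

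From day 1 to day 3 most ligands declined in WT. In WT, 7 members were called lower at day 3 than at day 1, where 17.3% of all genes were called lower, and none was called higher (15.4% of all genes). They were Ccl4 (-2.44 ± 0.41; adjusted p = 3.82e-05), Ccl5 (-1.73), Ccl3 (-1.60), Ccl12 (-1.56), Ccl7 (-1.12), Ccl2 (-0.80) and Ccl9 (-0.80). The 2 receptors and Ccl6 did not pass. In KO, 2 members were called lower, Ccl4 (-1.47 ± 0.41; adjusted p = 0.00356) and Ccl12 (-1.43 ± 0.33; adjusted p = 0.00075), where 31% of all genes were, and none was called higher (23.5%). Without WT day 3 replicate 2 the counts were 6 in WT, as Ccl7 no longer passed (-0.99; adjusted p = 0.076), and 3 in KO, with Ccl3 added. Ccl4 in WT was then -1.73 and Ccl3 -0.93, and both passed. The Ccl5 call in WT rests on values under log2 4, and with those set to 4 the difference was -0.29 and did not pass (adjusted p = 0.465). In a fit of the compared groups alone Ccl3 in WT did not pass (adjusted p = 0.0605) and Ccl6 did (adjusted p = 0.0215). Leaving out WT day 1 replicate 1, WT day 1 replicate 4 or WT day 3 replicate 4 took the WT count to 4. Ccl2, Ccl7 and Ccl9 were the members whose WT call was lost without some single array, and Ccl6 passed without KO day 3 replicate 1 or 2 or the array labelled KO sham replicate 2. The difference between genotypes in this change was called for none of the 10 members, where 0.859% of all genes were called in either direction. None of the members had an unadjusted p under 0.05 either, for which no share of all genes was taken.

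From day 3 to day 7 the steepest declines were those of Ccl2 and Ccl7. In KO, 6 members were called lower at day 7 than at day 3, where 16.6% of all genes were called lower, namely Ccl7 (-4.19 ± 0.39), Ccl2 (-3.76 ± 0.30), Ccr2 (-3.13 ± 0.53), Ccr1 (-2.48 ± 0.42), Ccl9 (-1.66 ± 0.30) and Ccl6 (-1.57 ± 0.35). In WT, 5 were called lower, where 12% of all genes were, namely Ccl7 (-3.45 ± 0.41), Ccl2 (-3.44 ± 0.32), Ccr1 (-2.42 ± 0.44), Ccl9 (-1.06 ± 0.31) and Ccl6 (-1.05 ± 0.37). Without WT day 3 replicate 2 the WT count was 4, since Ccl6 and Ccl9 no longer passed (adjusted p = 0.0933 and 0.058) and Ccr2 did (-1.49; adjusted p = 0.0327). Ccl5 was the member called higher, by 1.98 ± 0.54 in KO (adjusted p = 0.00618) and by 1.57 ± 0.57 in WT (adjusted p = 0.0451), where 19.3% of all genes were called higher in KO and 11% in WT. The WT call of Ccl5 was lost without any 1 sham array of either genotype, WT day 1 replicate 3, KO day 1 replicate 2, WT day 3 replicate 1, 2 or 4, or WT day 7 replicate 1, 3 or 4 (adjusted p = 0.0502 to 0.158). The WT call of Ccl6 was also lost without WT day 3 replicate 1 or 3 or any 1 WT day 7 array (adjusted p = 0.0524 to 0.099), and Ccl3 in WT passed as higher without WT day 3 replicate 1, 3 or 4 or KO day 3 replicate 4. Ccl12, Ccl3 and Ccl4 did not pass in either genotype, with KO values of -0.27, 0.04 and 0.18 and WT values of -0.90, 0.94 and 0.88. Without WT day 3 replicate 2 the WT values of Ccl3 and Ccl4 were 0.27 and 0.17 (adjusted p = 0.432 and 0.78). Ccl12 in WT passed with the compared groups alone, with values under log2 4 set to 4, with array weights and with the replicate number as a block (adjusted p = 0.0222 to 0.0406). The genotype difference in this change was called for no member, where 0.00834% of all genes were called. At an unadjusted p under 0.05, for which no share of all genes was taken, there was 1 member. It was Ccr2, with -2.38 ± 0.77 (adjusted p = 0.564), or -1.64 without WT day 3 replicate 2.

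KO and WT cords were compared at each time, which asks whether the loss of trkB.T1 goes with other levels of these genes. None of the 10 members was called at any time. Of all genes, 0.0667% were called in either direction in sham cords, 0.859% one day after injury, and 0.0334% on each of days 3 and 7. With no adjustment, p was under 0.05 for 0 members in sham cords, 0 on day 1, 6 on day 3 and 1 on day 7. These counts cannot be set against the shares above, which are for the adjusted p. No share of all genes was taken at an unadjusted p, here or below. In sham cords the KO minus WT differences ran from -0.54 (Ccl6) to 0.52 (Ccl2), and without the array labelled KO sham replicate 2 they were -0.17 for Ccl6 and 0.70 for Ccl2 (unadjusted p = 0.0445). The Ccl2 sham arrays read 2.56 to 3.80 in WT and 2.90 to 4.05 in KO, under or about log2 4, where differences have little meaning. At day 1 they ran from -0.49 (Ccl5) to 0.38 (Ccl12), and the 95% interval of Ccl2 was -0.59 to 0.64 and that of Ccl3 was -0.81 to 0.58.

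At day 3 all 10 differences were positive, with a median of 0.65 over the members and -0.00 over all tested genes, of which 49.4% were positive. Ccr2 differed most, by 1.63 ± 0.53 (95% interval 0.55 to 2.70; adjusted p = 0.341), followed by Ccl4 (0.96 ± 0.41), Ccl7 (0.84 ± 0.39), Ccl3 (0.78 ± 0.34), Ccl2 (0.68 ± 0.30) and Ccl9 (0.62 ± 0.30). The adjusted p of those 5 ligands ran from 0.377 to 0.426. Without WT day 3 replicate 2 the difference was 0.88 for Ccr2, 0.25 for Ccl4 and 0.11 for Ccl3, against 0.79 for Ccl2, 0.74 for Ccl9 and 0.86 for Ccr1. All 10 remained positive, none was called, and 3 had an unadjusted p under 0.05, for which no share of all genes was taken. KO day 3 replicates 3 and 4, whose array weights were low (0.13 and 0.18), were kept in these values. Their signals were the highest of the KO day 3 group for Ccl2 (10.37 and 10.31), Ccl7, Ccl12, Ccl3, Ccl4 and Ccr1. For Ccl5, Ccl6, Ccl9 and Ccr2 this did not hold for both. How far the positive differences rest on this pair of arrays was not tested. The members share the day 3 arrays and are not separate tests of the genotypes.

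**Figure D3:**
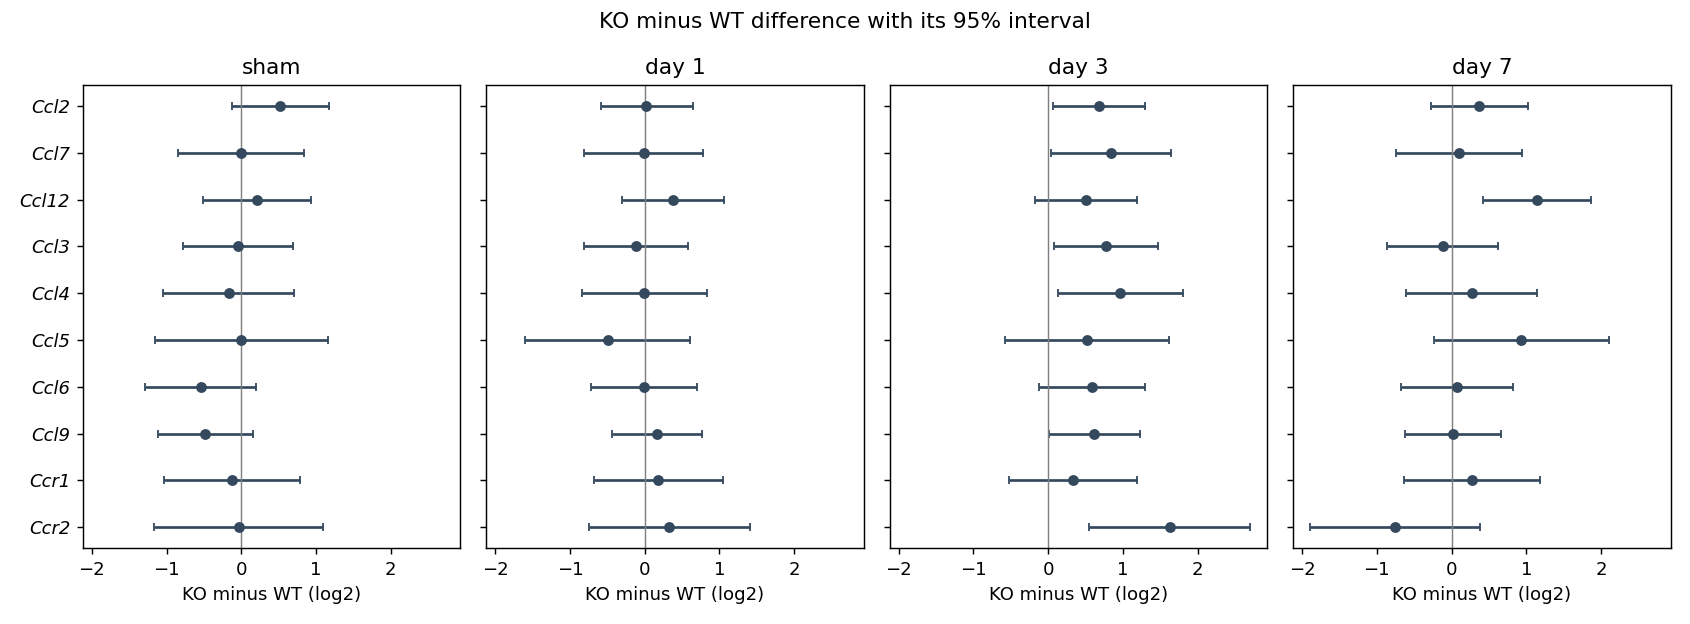
KO minus WT log2 difference (horizontal axis) with its 95% interval for each member, in panels for sham, day 1, day 3 and day 7. At day 3 all 10 points lie to the right of 0, from 0.33 for Ccr1 to 1.63 for Ccr2, and no difference passed the adjusted threshold.

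The day 3 arrays differed among themselves within both genotypes. In KO, replicates 2 and 5 were the 2 lowest arrays for 7 of the 10 members, Ccl2, Ccl7, Ccl12, Ccl6, Ccl9, Ccr1 and Ccr2. The same 2 arrays had the lowest means of the 12 monocyte and macrophage markers, 9.88 and 9.97, against 10.66 or more on replicates 1, 3 and 4. Replicates 3 and 4 stood apart in other ways, with neuron list means of 10.56 and 10.79, against 11.55 to 11.85 on the other KO day 3 arrays, and array weights of 0.13 and 0.18, against 0.79 to 1.00. Replicate 3 also had the highest neutrophil and skeletal muscle list means of the group, 10.37 and 14.01. In WT day 3 cords the means of the monocyte and macrophage markers were 10.14, 9.93, 10.22 and 9.82. WT day 3 replicate 2 had 5.19 for Ccl3, 3.60 for Ccl4 and 2.72 for Ccr2, against 7.72 to 7.95, 6.39 to 6.52 and 5.54 to 5.81 on the other WT day 3 arrays, but its Ccl2 (9.30) and Ccr1 (9.51) were the highest of the group. Its array weight was 0.08, against 1.12 to 2.96 on the other WT day 3 arrays. It also had the lowest mean of homeostatic microglia markers, 7.43 against 8.67 to 8.90, and the highest level of the tested red blood cell marker, 8.55 against 4.33 to 5.30. The part of these markers in the members' values was not tested.

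**Figure D4:**
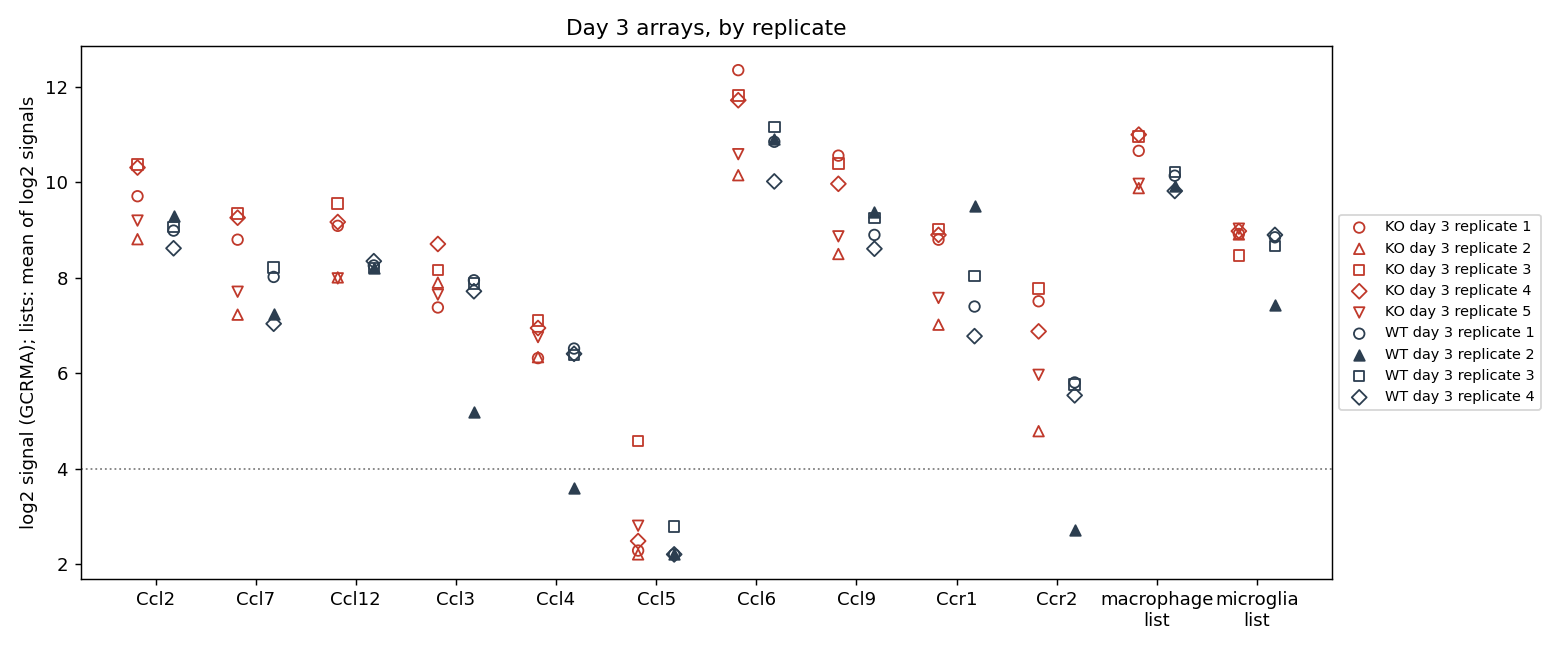
Log2 signal (vertical axis) of the 10 members and the mean of the monocyte and macrophage list and of the homeostatic microglia list on each day 3 array, KO in red left of WT in dark blue, 1 marker shape per replicate, with a dotted line at log2 4. WT replicate 2 (filled triangles) lies below the other WT arrays for Ccl3, Ccl4, Ccr2 and the microglia list, and above them for Ccr1.

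At day 7 Ccl12 was the member with an unadjusted p under 0.05. Its KO arrays, 8.02 to 9.08, did not overlap its WT arrays, 6.82 to 7.74, and the difference was 1.14 ± 0.35 (95% interval 0.42 to 1.86; unadjusted p = 0.00299), but it did not pass (adjusted p = 0.676). Ccl5 was 0.93 ± 0.57 higher and Ccr2 -0.76 ± 0.56 from WT, and both intervals held 0. The other ligands of Ccr2 differed by 0.37 (Ccl2; 95% interval -0.28 to 1.02) and 0.10 (Ccl7; -0.74 to 0.94).

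The genotype difference in the response to injury (KO injured minus KO sham, less the same in WT) was called for no member at day 1, 3 or 7, where 0.142%, 0% and 0.00834% of all genes were called in either direction. At an unadjusted p under 0.05, for which no share of all genes was taken, there were 0, 3 and 0 members. The 3 at day 3 were Ccr2 (1.66 ± 0.77), Ccl6 (1.14 ± 0.50) and Ccl9 (1.10 ± 0.43), each with an adjusted p of 0.679 or more. The array labelled KO sham replicate 2 and WT day 3 replicate 2 enter these values, and without both of them 1 member, Ccl9, had an unadjusted p under 0.05 and the Ccr2 value was 0.82.

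Other probe sets bear on how far the values depend on the probe set chosen. A lower Ccl6 probe set (1420249_s_at) was higher than sham by 5.24, 5.01 and 3.68 in KO and by 4.76, 4.15 and 2.92 in WT at days 1, 3 and 7. A lower Ccl9 probe set (1448898_at) was higher by 5.27, 4.85 and 3.30 in KO and by 4.83, 4.06 and 2.99 in WT. These stand beside 5.28, 4.94 and 3.28 in KO for the Ccl9 probe set used. A weaker Ccr1 probe set (1419610_at) averaged 5.12 and 5.07 at day 1 in KO and WT but lay under log2 4 on all day 7 arrays, where it did not differ from sham by the test (0.15 in KO and 0.46 in WT, adjusted p = 0.834 and 0.445). The other 3 Ccr2 probe sets did not rise above the limit for testing.

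Other genes of the CC family were read from a list of 25 ligands, receptors and decoy receptors. Of these, 21 were on the array under their own symbol alone, 6 were tested, and the other 15 were above log2 4 on no array. Ccl8 and Ccl11 lie beside Ccl12 on chromosome 11. Ccl8 rose later than Ccl2, Ccl7 and Ccl12. It was not called at day 1 (0.53 ± 0.61 in KO and 0.17 ± 0.58 in WT) and was higher than sham at day 3 (3.80 ± 0.58 in KO, adjusted p = 1.63e-06; 1.90 ± 0.61 in WT, adjusted p = 0.00791) and day 7 (3.03 ± 0.61 and 2.38 ± 0.61). Its KO day 3 arrays spread from 4.63 to 9.52, and the WT day 3 arrays from 3.85 to 5.82. Ccl11, an attractant of eosinophils, was higher at all 3 days, with its largest difference at day 3 in both genotypes (3.10 ± 0.38 in KO and 2.73 ± 0.40 in WT). Ccl27a, a chemokine of epithelial tissues, was called lower at all 3 days, with a difference of -1.08 ± 0.16 in KO and -1.08 ± 0.17 in WT at day 3. Ackr1, a decoy receptor on venules and red cells, was higher at day 1 (0.91 ± 0.15 in KO and 0.77 ± 0.15 in WT) and lower at day 7 (-0.44 ± 0.15 and -0.41 ± 0.15). Ackr4, a scavenging receptor, was higher at every day except day 1 in KO (0.30 ± 0.22; adjusted p = 0.251). Ccl25 was called only in KO at day 7, with a difference of -0.49 ± 0.17, and none of the 6 was called between KO and WT.

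**Figure D5:**
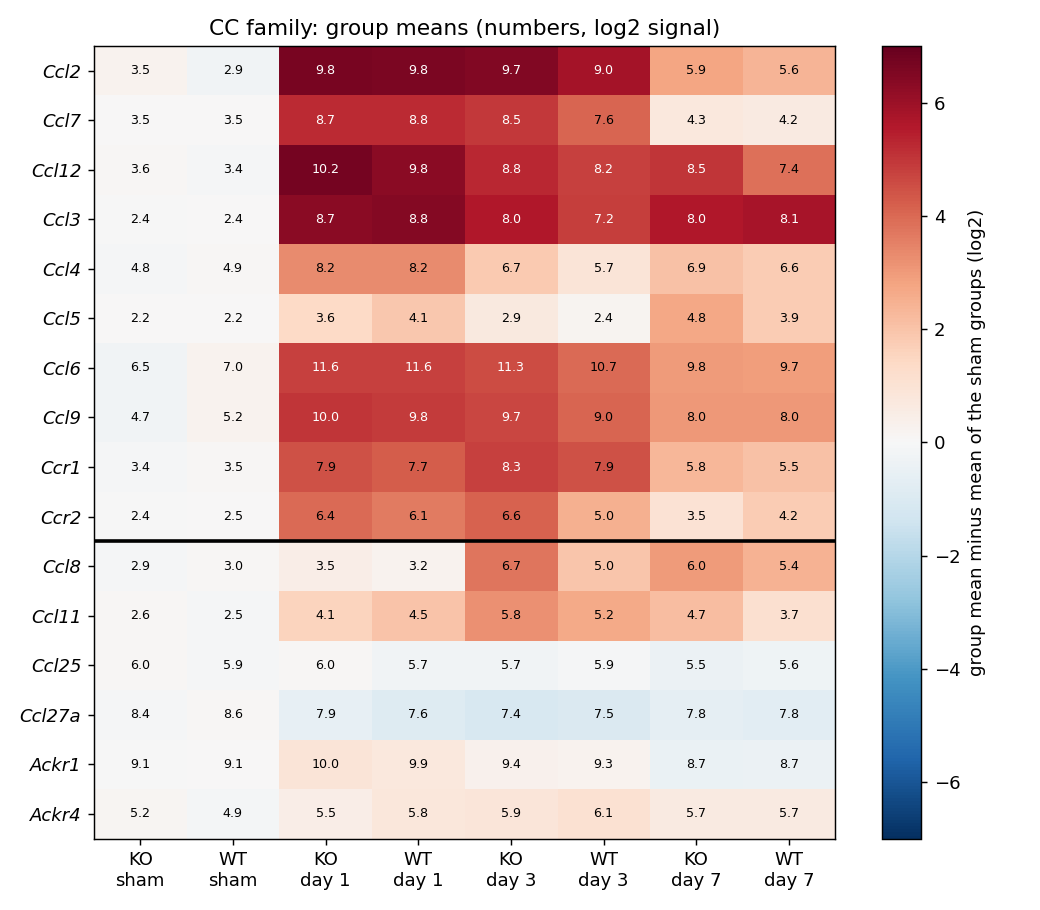
Group means (numbers, log2 signal) of the 10 members and, under the black line, of the 6 other CC family genes tested, with KO left of WT at each time, coloured by the difference from the mean of the sham groups. Signals of different genes are read by different probes and cannot be compared down a column. Ccl8 is at 3.46 in KO and 3.21 in WT at day 1 and between 4.95 and 6.74 at days 3 and 7.

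Genes that carry the signal of chemokine receptors changed less than the members. Of 20 listed, 17 were tested. In KO, 12, 12 and 13 were called higher at days 1, 3 and 7 and 4 were lower at each day. In WT, 10, 11 and 13 were higher and 4, 5 and 4 were lower. The shares of all genes called higher were 23.7%, 30.9% and 23.5% in KO and 27.1%, 29.5% and 25.8% in WT. Those called lower were 27.3%, 38.8% and 31% in KO and 32.5%, 37.4% and 33.3% in WT. The list's share called lower was under these on every day. The list's median difference at day 1 was 0.48 in KO and 0.42 in WT, against -0.05 over all tested genes in both. Stat3, a transcription factor downstream of cytokine receptors, rose by 1.72 ± 0.11 in KO and 1.68 ± 0.11 in WT at day 1, and Gnai3, an inhibitory G protein subunit, by 0.79 ± 0.12 and 0.93 ± 0.11. Pik3r5, a subunit of the PI3-kinase that such G proteins activate, rose by 1.24 ± 0.21 and 1.62 ± 0.20 at day 1 but was still under log2 4 there. Rgs2, an inhibitor of G protein signalling, was lower at day 1 (-0.38 ± 0.09 and -0.57 ± 0.08) and higher at day 7 (0.60 ± 0.09 and 0.62 ± 0.09).

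Genes of the pathways that induce chemokine transcription were mostly higher. Their list includes Nfkbia, Tnfaip3 and Zfp36, which restrain that response, so its counts are not of inducers alone. Of 18 listed, 15 were tested, and 12, 14 and 12 were called higher at days 1, 3 and 7 in KO, and 14, 14 and 13 in WT, with none lower. Beside these stand the shares of all genes called higher, 23.7%, 30.9% and 23.5% in KO and 27.1%, 29.5% and 25.8% in WT. From 27.3% to 38.8% of all genes were called lower. The list's median at day 1 was 1.83 in KO and 1.90 in WT. Fos, a subunit of AP-1, averaged 9.14 ± 0.37, 11.76 ± 0.29, 10.84 ± 0.25 and 9.99 ± 0.11 in KO cords after sham surgery and at days 1, 3 and 7, and 8.90 ± 0.34, 11.83 ± 0.21, 10.96 ± 0.25 and 10.08 ± 0.16 in WT (SD, n = 4 or 5). Nfkbiz, a nuclear cofactor of NF-kB, rose by 2.27 ± 0.15 in KO and 2.50 ± 0.14 in WT at day 1, Jun, the partner of Fos, by 1.83 ± 0.12 and 1.90 ± 0.11, and Myd88, the adaptor of Toll-like and IL-1 receptors, by 1.80 ± 0.15 and 1.62 ± 0.15. None of these 15 genes was called between KO and WT at any time.

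Several lists of cell type markers changed over the same days. Of 12 tested monocyte and macrophage markers, 9, 12 and 11 were called higher than sham at days 1, 3 and 7 in KO, and 11, 12 and 11 in WT. The mean of the list over its genes was 5.16 ± 0.37, 8.50 ± 0.33, 10.50 ± 0.53 and 9.84 ± 0.08 in KO sham, day 1, day 3 and day 7 cords (SD, n = 4, 4, 5 and 4). In WT it was 5.47 ± 0.07, 8.88 ± 0.29, 10.03 ± 0.18 and 9.92 ± 0.24 (SD, n = 4, 5, 4 and 4). Homeostatic microglia markers, 10 of which were tested, had list means of 6.29 to 6.73 in KO day 1 cords, below the KO sham arrays at 6.95 to 7.21, and reached 9.43 to 9.48 in KO day 7 cords. In WT these ranges were 6.77 to 7.09 at day 1, 6.96 to 7.40 in sham cords and 9.40 to 9.48 at day 7. Of the 9 neutrophil markers tested, 1, 2 and 2 were called higher at days 1, 3 and 7 in each genotype, a share at or below that of all genes on each day (23.5% to 30.9%). Of 6 astrocyte markers, 2, 2 and 3 were called higher and 2, 2 and 0 lower in KO at days 1, 3 and 7, and 2, 2 and 3 higher and 4, 2 and 0 lower in WT. Of 6 endothelial markers, 2, 5 and 1 were higher in KO, with 1 lower at day 7, and 6, 6 and 1 were higher in WT. Of 6 fibroblast and meninges markers, 0, 6 and 6 were higher in KO and 4, 4 and 6 in WT, with none lower. Of 8 neuron markers, 3, 8 and 6 were lower in KO and 6, 8 and 8 in WT. The shares of all genes called higher on those days were 23.7%, 30.9% and 23.5% in KO and 27.1%, 29.5% and 25.8% in WT. Those called lower were 27.3%, 38.8% and 31% in KO and 32.5%, 37.4% and 33.3% in WT. Counts such as 2 of 6 lie near these shares. The part of the listed cell types in the members' changes was not tested.

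The tested genes outside the members whose 8 group means ran closest to a member, by the root mean square difference of centred means, were as follows. Ccl9 was closest to Saa3 (0.27), an acute-phase protein, and Cebpd (0.28), a transcription factor of that response, and Ccl6 to Synpo, Saa3 and Cebpd (0.31, 0.31 and 0.32). Ccl4 was closest to the interferon-inducible GTPases Gbp3 (0.35), Igtp (0.38) and Irgm1 (0.46), and Ccl5 to Rras2 (0.43), Ifit3 (0.48) and Gbp6 (0.55). Ccl12 and Ccl3 both had Ptx3, a soluble pattern receptor, as the nearest gene (0.46 and 0.56). Ccl2 had Tgm1, Ccn1 and Socs3 (0.65, 0.67 and 0.70) and Ccl7 had Clcf1, Lrg1 and Slfn4 (0.62, 0.62 and 0.71). Ccr1 was closest to Spidr, Tm4sf1 and Tnc (0.33, 0.36 and 0.37), and Ccr2 to Sbno2, Slfn4 and Bcl3 (0.47, 0.54 and 0.56). By Pearson's correlation of the same 8 means, the nearest genes were others, such as Lix1l for Ccl2 and Slc14a1 for Ccl3 (r = 0.997 and 0.998 over 8 groups that share arrays), so the names depend on the measure.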

How the data were processed

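Cord RNA (a Trizol extraction) was turned into biotin-labelled cRNA and read on Affymetrix arrays, per the labels' protocols. The authors deposited 1 log2 signal per probe set and array, and the submitters' processing notes name GCRMA, in a version not given in the sources used here. GCRMA corrects background by probe sequence and normalises arrays by quantiles. Values ran from 2.17 to 15.9, with array medians from 4.14 to 4.39, and were used as deposited.

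Of 45101 probe sets, 64 were controls and 34945 had 1 gene symbol, 932 several and 9160 none. Entrez IDs linked 34741 of those with 1 symbol to the GRCm38.p6 gene table. The 10 members had 16 probe sets. Each gene kept the probe set with the highest mean, and those over log2 4 on 4 or more arrays were tested (11993, with 6200 left out). One mean per genotype and time group was fitted to all 34 arrays with limma 3.58.1 in R 4.3.3 (lmFit and eBayes), with 19 comparisons and Benjamini-Hochberg adjustment over the tested genes of each. The fit was tested on simulated data. Comparisons with a common group are not independent.

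A fold written "at least" sets the lower group's arrays to log2 4 where they are under it. The text names all members, list genes by a rule (up to 4 per pathway list with the smallest p in WT at day 1, and each passing CC family gene), and 3 genes per member by likeness. The members and the lists were chosen with earlier results of these data known. Motifs and shared runs were found by exact letter matching.

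Alternatives were another filter or none, adjustment over all probe sets, a floor at log2 4, renewed quantile normalisation, centring on the median, a trend with robust eBayes, array weights, fits of the compared groups alone, a replicate block and leaving out each array. Replicate numbers repeat across groups in the labels. Deviations of same-numbered arrays from their group means had a mean correlation of 0.001 over 113 pairs (-0.51 to 0.56, 26 over 0.1), so the numbers were not taken to pair samples.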

Additional observations from a re-analysis of the deposited data

Results flagged for a closer look

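In each group of 4 or 5 arrays, the highest or lowest value of each member was set against the gap that Dixon's test allows at the 95% level. This picked out 11 values among 78 group and gene combinations with any spread, where chance gives about 1 in 20. Of these, 3 belong to WT day 3 replicate 2, which read 5.19 for Ccl3, 3.60 for Ccl4 and 2.72 for Ccr2, far below the other WT day 3 arrays. Another 2 lie above log2 4, KO day 1 replicate 2 with 8.13 for Ccl3 (other arrays 8.83 to 8.85) and KO day 3 replicate 3 with 4.58 for Ccl5 (others 2.21 to 2.81).

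The remaining 6 lie under log2 4, where differences between arrays have little meaning. They are WT sham replicate 2 for Ccl2 (3.80) and for Ccr1 (3.58), WT sham replicate 3 for Ccl3 (2.56), WT day 3 replicate 3 for Ccl5 (2.79), and, by the least differences, the array labelled KO sham replicate 2 for Ccl3 (2.37) and KO sham replicate 3 for Ccl5 (2.17).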

How the results depend on the processing

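No member's called difference changed direction under any alternative. The counts of members called higher than sham kept within 1.5 times of their value at every day under each alternative. The count called lower in WT from day 1 to day 3 was 7, and 4 to 8 when 1 array was left out. The count called higher in WT from day 3 to day 7 was 1, and 0 to 2 when 1 array was left out. It was 0 in fits of the compared groups alone, with no filter, with a filter at log2 6, with adjustment over all probe sets, with values under log2 4 set to 4, and without the array labelled KO sham replicate 2 and WT day 3 replicate 2 (an alternative chosen after seeing the data), and 2 with the replicate number as a block. The count in KO was 1, and 0 with the filter at log2 6, which leaves out Ccl5. The block let Ccl12 and Ccl3 pass from day 3 to day 7 in WT (adjusted p = 0.0279 and 0.041) and changed no other member's call. Array weights moved 8 of 190 member values across the threshold, among them Ccl7 in KO at day 7 (adjusted p = 0.0292).

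Over all genes, adjustment over all probe sets, which tests more features, raised the number called against sham to 10953, 15930 and 11601 in KO at days 1, 3 and 7 (6124, 8359 and 6540 otherwise) and to 13002, 15187 and 13143 in WT (7140, 8018 and 7088 otherwise). Between days 1 and 3 the number was 6539 in KO (4786 to 11443 over the alternatives) and 3915 in WT (2516 to 6648), and between days 3 and 7 it was 4303 in KO (2126 to 7460) and 2765 in WT (1029 to 4712). For the genotype differences in the response at days 1, 3 and 7 it was 17 (13 to 105), 0 (0 to 5) and 1 (0 to 57), and for those in the change from day 1 to 3 and from day 3 to 7 it was 103 (25 to 342) and 1 (0 to 2). The number called between KO and WT was 8 in sham cords (1 to 65 over the alternatives), 103 at day 1 (49 to 310), 4 at day 3 (0 to 32) and 4 at day 7 (2 to 233). The cause of these other changes was not tested. Low signal limits Ccl5, Ccr2 at day 7 and all members in sham cords whose arrays lie under log2 4.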
